A study of Mus musculus with 6 samples.

Results

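Meiosis genes are followed here in mouse embryonic stem cells and in cells differentiated from them for 4 and 7 days: 10 genes chosen by name, out of 18193 genes named on the array. They were read from 11 probe sets out of 45037, those whose platform annotation names the gene alone, and a gene with more than 1 probe set was represented by the brightest. Stra8, the gene of meiotic entry, fell 5.35-fold between days 0 and 4 and stood at or above its day 0 level again at day 7 in both lines. From day 4 to day 7, 8 of the 9 measured genes were higher in both lines, beside 28.3% of all genes. The fitted levels of all 9 were higher at day 7, by 1.37-fold to 9.16-fold, none of them past the threshold for all genes. Of these signs, those of Sycp3 and Hormad1 rest on 1 array each. In the deletion line 7 of the 9 genes were at least 2-fold higher at day 7 than at day 0, beside 6.25% of all genes, and in the full-length line 1 of the 9, beside 9.96%. The deletion line was at least 2-fold below the full-length line for 5 of the 9 at day 0, beside 2.82%. At day 7 it was at least 2-fold above that line for 3 of the 9, beside 3.95%. The counts of 8, 7 and 5 take in Dmc1. Its dimmer probe set fell from day 4 to day 7 in the deletion line and was less than 2-fold apart in the others.

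Meiosis reduces the chromosome number of germ cells. STRA8 is made in answer to retinoic acid as germ cells enter meiosis. The cohesin subunits REC8, SMC1B and STAG3 then hold sister chromatids together on a proteinaceous axis, SYCP3 builds the axis, SYCP1 zips paired axes into the synaptonemal complex, and HORMAD1 marks axes that are not yet paired. SPO11 cuts the DNA, and DMC1, a recombinase, and MEIOB, a single-strand binding protein, act on the cut ends to find the partner chromosome. In stem cells and body cells many of these genes carry CpG-rich promoters that are silenced by DNA methylation or by Polycomb complexes with E2F6, MGA and MAX.

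Expression was measured in 2 mouse embryonic stem cell lines on 1 Affymetrix array for each line and day. Both are Dnmt1/3a/3b triple knockouts, without their own DNA methyltransferases, in which 1 form of DNMT1 was put back with ubiquitous expression. The full-length line (TKO_FL) carries the whole protein and the deletion line (TKO_602) a DNMT1 lacking 602 residues at its N-terminus, so the DNMT1 form and the line cannot be told apart. Stem cells grown in 10% FBS with LIF, which holds off differentiation, made up day 0. For day 4 they formed embryoid bodies for 1 day and grew as an adherent layer for 3, all without LIF. For day 7 this layer was kept for 3 days in medium with 10% KSR and 10 ng/ml Activin A, added to bring on primitive streak formation. Time, medium and Activin A therefore go together after day 4. The sources used here do not say which promoter drives DNMT1 or whether each line is 1 clone.

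Levels are log2 MAS5 signals, and a floor of 5.37 marks dim values: a gene counts as measured when its mean signal reaches the floor, as 13277 of 18193 genes and 9 of the 10 meiosis genes did. Each line and day is 1 sample, so there were no replicates, and the number of arrays limits the precision. Differences over both lines were fitted with limma with line and day as additive terms, where the spread is how far the lines disagree, and p-values were adjusted over all 13277 genes. A gene was called at an adjusted p under 0.05. Between single arrays no test was possible, and there a gene was counted when it was at least 2-fold apart with its brighter array at least 2 times the floor. In bulk RNA, more cells with a transcript and more transcript per cell cannot be told apart. Of the knocked-out genes, Dnmt1 lay between 8.37 and 9.65, Dnmt3a between 2.45 and 5.86 and Dnmt3b between 8.21 and 9.71 on the 6 arrays, but the deleted exons were not located under the probes, so these levels check no label. The stem cell factor genes Pou5f1, Nanog and Sox2 lay between 12.69 and 14.02 on all 6 arrays.

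The promoters of the genes with the most different courses are shown because the lines differ in the DNA methyltransferase they carry. The sequences are from RefSeq (GRCm38.p6) and run 5′ to 3′ on the gene's strand. Each spans 250 bases before to 50 bases after the start of a promoter entry for the gene. For Stra8 and Stag3 this start lies inside the gene, whose locus begins at 34920163 and 138272514, in that order. The sequence at the outer end of these 2 loci was not searched. Positions count from the start of the entry and give a motif's first base. Capitals mark TCCCGC, the core of the E2F6 motif, CACGTG, the E-box bound by MAX and MGA, and AGGTCA, the motif of retinoic acid receptors and other nuclear receptors, each searched on both strands. Stra8 stands for itself (chr6:34920698-34920997, plus strand), Smc1b (chr15:85131908-85132207, minus strand) and Stag3 (chr5:138280259-138280558, plus strand) for genes lowest at day 4 in both lines, Sycp1 (chr3:102936051-102936350, minus strand) for genes highest at day 7, and Hormad1 (chr3:95559427-95559726, plus strand, the first of its 2 entries) for the gene with the highest fitted line difference among them.
Stra8: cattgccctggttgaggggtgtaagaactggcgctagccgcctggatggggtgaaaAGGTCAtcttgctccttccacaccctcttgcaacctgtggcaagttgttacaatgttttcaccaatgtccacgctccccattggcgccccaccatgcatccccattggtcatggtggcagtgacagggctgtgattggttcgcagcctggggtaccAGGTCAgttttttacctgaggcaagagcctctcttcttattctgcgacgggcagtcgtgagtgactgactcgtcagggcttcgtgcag
Smc1b: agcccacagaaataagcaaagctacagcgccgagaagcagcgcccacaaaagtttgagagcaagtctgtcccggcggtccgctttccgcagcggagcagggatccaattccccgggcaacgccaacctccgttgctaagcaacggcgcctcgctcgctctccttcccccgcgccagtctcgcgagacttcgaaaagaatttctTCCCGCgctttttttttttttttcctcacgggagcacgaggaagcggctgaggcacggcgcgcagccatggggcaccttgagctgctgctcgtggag
Stag3: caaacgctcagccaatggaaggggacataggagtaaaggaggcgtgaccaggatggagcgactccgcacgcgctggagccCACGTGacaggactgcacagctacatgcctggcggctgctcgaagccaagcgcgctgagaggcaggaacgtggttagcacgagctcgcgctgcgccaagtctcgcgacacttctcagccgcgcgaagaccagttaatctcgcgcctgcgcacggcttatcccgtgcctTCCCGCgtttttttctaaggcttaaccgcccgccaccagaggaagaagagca
Sycp1: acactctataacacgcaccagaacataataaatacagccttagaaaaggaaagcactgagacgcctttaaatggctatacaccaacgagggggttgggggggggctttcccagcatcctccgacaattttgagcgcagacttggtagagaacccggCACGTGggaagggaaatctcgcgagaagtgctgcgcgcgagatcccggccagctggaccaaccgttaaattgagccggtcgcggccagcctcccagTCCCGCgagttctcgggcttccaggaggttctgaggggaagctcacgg
Hormad1: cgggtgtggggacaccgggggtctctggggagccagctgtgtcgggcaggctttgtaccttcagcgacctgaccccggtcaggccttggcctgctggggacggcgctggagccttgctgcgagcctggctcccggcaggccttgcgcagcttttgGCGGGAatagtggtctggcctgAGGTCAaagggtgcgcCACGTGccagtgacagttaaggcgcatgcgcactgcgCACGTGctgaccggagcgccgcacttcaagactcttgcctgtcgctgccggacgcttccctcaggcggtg

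The Stra8 window held AGGTCA at positions -194 and -38 and neither of the other motifs. TCCCGC lay at position -47 of Smc1b, -2 of Stag3, 3 of Sycp1 and, as GCGGGA on the other strand, -95 of Hormad1, and CACGTG at -170 of Stag3, -94 of Sycp1 and -57 and -20 of Hormad1, whose AGGTCA lay at -73. Of the 10 genes 8 had an entry in the promoter table, without Meiob and Spo11. TCCCGC was found in 7 of these 8, in all but Stra8, against 6562 of all 32851 promoters and 34.8% of the 10812 promoters with 10 to 30 CpG, the range of these 8 genes. CACGTG was found in 4 of 8 (Hormad1, Stag3, Sycp1 and Sycp3), against 7.15% and 10.7%, and AGGTCA in 3 of 8 (Hormad1, Stra8 and Sycp3), against 16.3% and 11.8%. Matches of different motifs did not overlap in the windows printed. A match says that the letters are there and not that a factor binds them.

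All 8 windows held more CpG than the median promoter. Stra8 had the lowest count, 10 CpG, and Sycp3 had 15, Dmc1 and Rec8 18 each, Sycp1 21, Hormad1 24, Smc1b 29 and Stag3 30. The median over all promoters was 7, with quartiles of 3 and 20. Methylation was not measured in these samples, so nothing here tells which of these CpG were methylated.

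**Figure D1:**
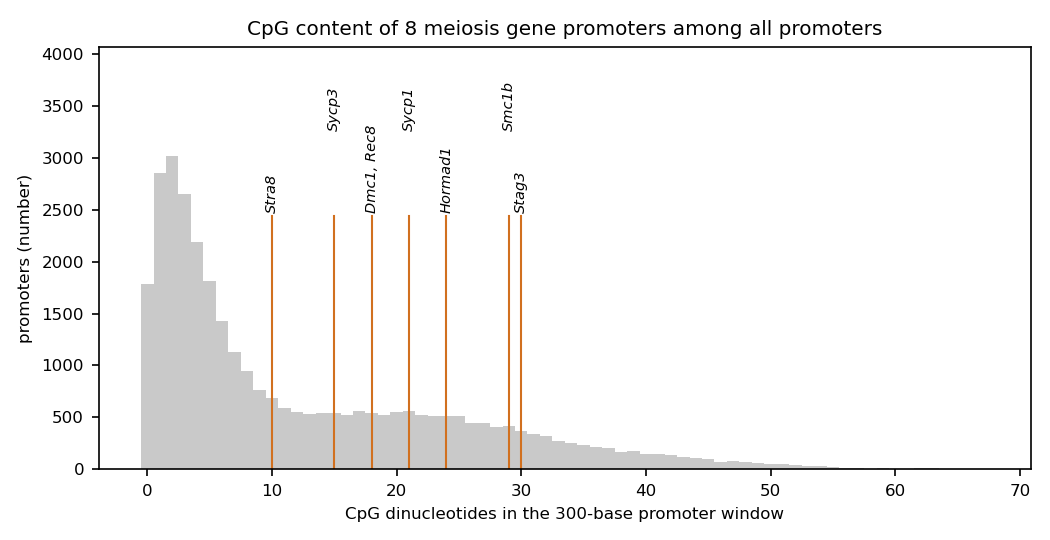
Number of promoters (vertical axis) by CpG dinucleotides in a window of 300 bases (horizontal axis) for 32851 RefSeq promoters in grey, with the 8 meiosis genes that have an entry as lines. The 8 genes lie between 10 and 30 CpG, above the median of 7.

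In the order of days 0, 4 and 7, Stra8, whose product starts the meiotic programme, read 9.13, 6.36 and 9.42 with the whole protein against 8.11, 6.04 and 9.37 in the mutant line. Both lines were low at day 4 and high at days 0 and 7, and the day 4 levels lay below all other levels of the gene. From day 0 to day 4 it fell 5.35-fold (log2 -2.42, SE 0.34, limma adjusted p = 0.025), the 1 of 9 measured meiosis genes called in this comparison, where 1.58% of all genes were called. The call was kept in 4 of 9 other settings and in 1 of 6 fits that left out an array, with adjusted p from 0.01 to 0.49 and from 0.048 to 0.42, and the log2 difference stayed between -2.84 and -1.62. Without the full-length day 0, day 4 and day 7 arrays the adjusted p was 0.42, 0.28 and 0.052, without the deletion line's day 0 and day 4 arrays 0.17 and 0.29, and without its day 7 array 0.048.

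From day 4 to day 7 the Stra8 level was 8.34-fold higher in the full-length line and 10.1-fold higher in the deletion line. The fitted difference of log2 3.20 (SE 0.34, limma adjusted p = 0.075) was not called. It ranked 1 of 13277 genes, and between 1 and 13 in the other settings: 4 and 9 with floors at the 20th and 60th percentiles, and 13 and 11 without the day 7 array of the full-length and of the deletion line. With arrays scaled to equal medians it was called (log2 3.23, adjusted p = 0.02). Both comparisons share the day 4 arrays, and a low reading there would move them in opposite directions. Against day 0 the day 7 level differed by log2 0.77 (SE 0.34, adjusted p = 0.3), 0.29 in the full-length and 1.26 in the deletion line.

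**Figure D2:**
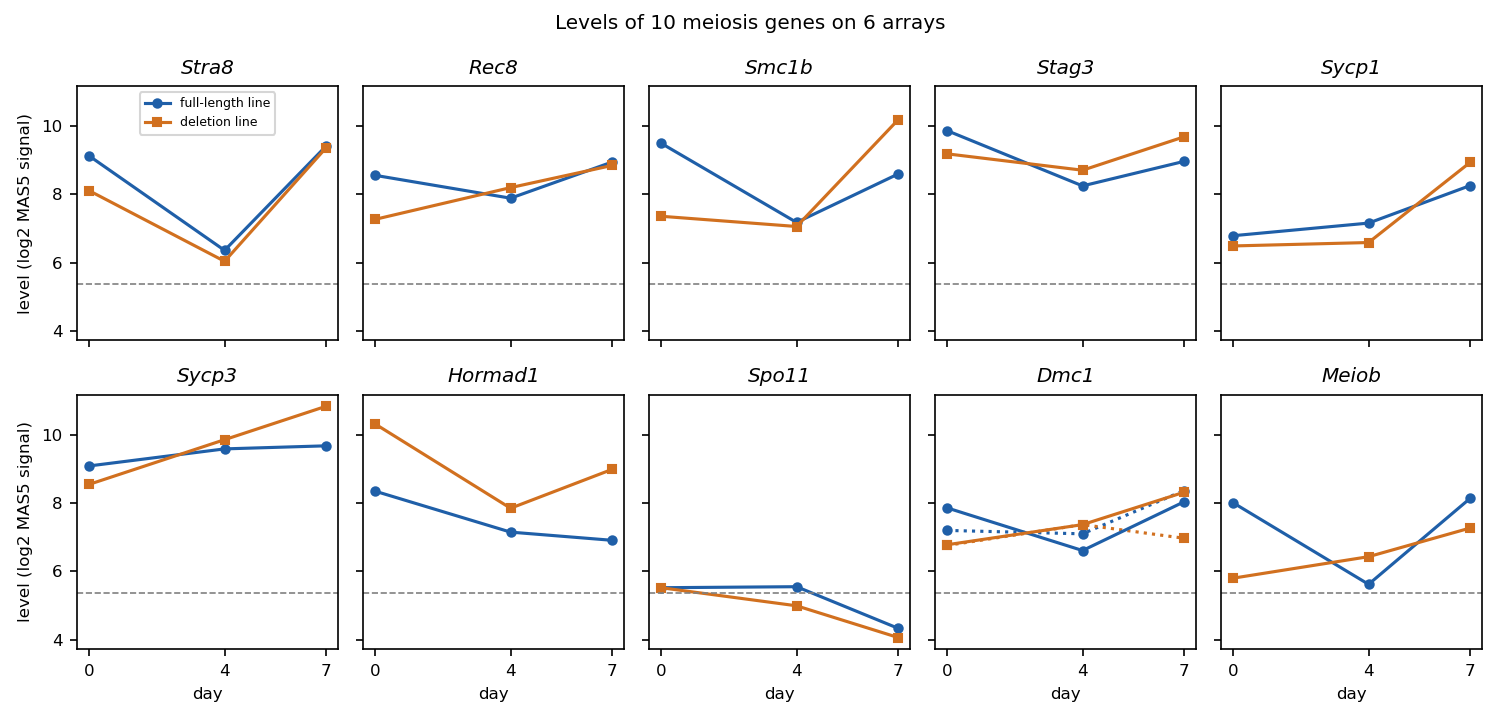
Level of each meiosis gene (vertical axes, log2 MAS5 signal) against day (horizontal axes), with circles for the full-length line, squares for the deletion line, 1 array per point, and the floor of 5.37 dashed. Dotted lines are the dimmer Dmc1 probe set. Stra8 is lowest at day 4 in both lines, and Spo11 lies near or below the floor.

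The meiotic cohesin genes followed different courses in the lines, a difference that was not tested. Smc1b, which encodes the meiotic partner of SMC3, measured 9.50, 7.18 and 8.60 (full-length line) and 7.36, 7.06 and 10.19 (deletion line). At day 4 the lines lay 0.12 apart on the log2 scale, while the full-length line was the higher at day 0, by 4.41-fold, and the deletion line at day 7, by 3.01-fold. The day 7 level was 8.75-fold higher than at day 4 in the deletion line and 2.68-fold higher in the full-length line. The fitted day 7 over day 4 difference was log2 2.28 (SE 0.73, adjusted p = 0.3), rank 24 of 13277, and was not called. It was 0.92 without the deletion line's day 7 array and 3.64 without that of the full-length line.

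Stag3, which encodes the cohesin subunit shared by the meiotic complexes, stood at 9.87, 8.25 and 8.97 with full-length DNMT1 and at 9.19, 8.71 and 9.69 with the deletion. Day 4 was the lowest day in both lines, with a fitted difference from day 0 of log2 -1.05 (SE 0.36, adjusted p = 0.2). Rec8, which encodes the kleisin that separase cuts in meiosis, read 8.56, 7.89 and 8.95 with the whole protein against 7.27, 8.20 and 8.85 in the mutant line. Its lines were 2.45-fold apart at day 0, full-length higher, and 1.07-fold apart at day 7. Between days 0 and 4 Rec8 moved by log2 -0.67 in the full-length and 0.93 in the deletion line, so that the mean change was 0.13 (SE 0.41, adjusted p = 0.92).

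Of the synaptonemal complex genes, Sycp1 and Sycp3 were highest at day 7 in both lines. Sycp1, which encodes the transverse filament, measured 6.79, 7.16 and 8.26 (full-length line) and 6.49, 6.59 and 8.94 (deletion line). Both day 7 levels were above the other 4, and day 7 over day 0 gave log2 1.96 (SE 0.40, adjusted p = 0.07), which was called only with arrays scaled to equal medians (adjusted p = 0.042). Sycp3, which encodes an axis protein, stood at 9.09, 9.59 and 9.68 with full-length DNMT1 and at 8.55, 9.86 and 10.84 with the deletion. Its day 7 over day 0 difference was 1.51-fold in the full-length and 4.89-fold in the deletion line (fitted log2 1.44, SE 0.37, adjusted p = 0.11). Unlike Stra8, Sycp3 had fitted levels at day 4 above those at day 0, by log2 0.90 (SE 0.37, adjusted p = 0.28).

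Hormad1, the axis gene of unpaired chromosomes, took another course, highest at day 0 in both lines. It read 8.35, 7.15 and 6.91 with the whole protein against 10.32, 7.85 and 8.99 in the mutant line. The deletion line was higher on each day, by log2 1.97, 0.70 and 2.08, and the fitted line difference of 1.58 (SE 0.32, adjusted p = 0.28) ranked 7 of 13277 genes without being called. From day 0 to day 4 it differed by log2 -1.84 (SE 0.39, adjusted p = 0.072), and it was called only with arrays scaled to equal medians (adjusted p = 0.031).

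Fibroblast markers, like Hormad1, had their highest summed signal at day 0 in both lines. All 10 listed fibroblast genes had fitted levels at day 4 below those at day 0, and 6 of them were called lower, beside 0.7% of all genes. At day 0, 8 of the 10 were at least 2-fold higher in the deletion line, beside 3.15%. The gene with the course most like Hormad1 was the fibroblast list's Fbln2 (Pearson r = 0.958 over 6 arrays). Fbln2 measured 8.51, 6.65 and 6.41 (full-length line) and 9.96, 6.81 and 8.25 (deletion line). The log2 of the list's summed signal was 12.65, 10.18 and 10.81 with full-length DNMT1 and 13.89, 9.96 and 11.27 with the deletion, with no marker listed at 0. The part of these cells in the Hormad1 levels was not tested.

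Among the recombination genes, Spo11 was not measured. Its levels were 5.52, 5.55 and 4.33 with full-length DNMT1 and 5.52, 4.99 and 4.06 with the deletion, below the floor on 3 of 6 arrays and at most 0.18 above it on the others. Transcripts of the nuclease that starts recombination were therefore not detectable above the dim range of these arrays. Dmc1, the meiotic recombinase gene, stood at 7.86, 6.61 and 8.04 with full-length DNMT1 and at 6.78, 7.37 and 8.32 with the deletion. Its dimmer probe set gave 7.20, 7.10 and 8.37 with full-length DNMT1 and 6.76, 7.37 and 6.97 with the deletion. The probe sets disagreed at day 7 of the deletion line, where the dimmer set was below its own day 4 level, and in the sign of the mean day 4 over day 0 change (log2 -0.33 against 0.25).

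Meiob, whose product binds single-stranded DNA beside DMC1, read 8.01, 5.62 and 8.14 with the whole protein against 5.80, 6.43 and 7.27 in the mutant line. With full-length DNMT1 the day 4 level was the lowest, log2 -2.39 from day 0, while in the deletion line each level was above the preceding one. The full-length line was 4.63-fold higher at day 0 and 1.83-fold higher at day 7, and the deletion line 1.75-fold higher at day 4. Its fitted day 7 over day 4 difference was log2 1.68 (SE 0.64, adjusted p = 0.36), and that of Dmc1 was 1.19 (SE 0.47, adjusted p = 0.37). Without the day 4 array of the full-length line these were 0.50 and 0.61, and without that of the deletion line 2.86 and 1.77.

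In the full-length line 6 of 9 genes were at least 2-fold lower at day 4 than at day 0 (Stra8, Smc1b, Stag3, Hormad1, Meiob and Dmc1), beside 5.03% of all genes, and in the deletion line 2 of 9 (Stra8 and Hormad1), beside 4.07%. The dimmer Dmc1 probe set went only from 7.20 to 7.10 in the full-length line. The median change over the 9 genes was log2 -1.25 in the full-length and 0.10 in the deletion line, with 0.03 and 0.06 over all genes. The difference between the lines was not tested, since 1 array per line and day leaves no spread for it. Over both lines 4 of 9 genes (Stra8, Hormad1 and Stag3 lower and Sycp3 higher) had an unadjusted p under 0.05, beside 16.2% of all genes.

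From day 4 to day 7, 8 of 9 genes were higher in both lines, all but Hormad1, beside 28.3% of all genes. The 8 take in Dmc1, whose dimmer probe set fell from 7.37 to 6.97 in the deletion line. At least 2-fold higher levels were seen for 6 of 9 in the full-length line and 4 of 9 in the deletion line, beside 5.2% and 4.78%, and for 3 of 9 in both (Stra8, Smc1b and Sycp1), beside 1.4%. With limma 0 of 9 genes were called, in a comparison that called 0.0151% of all genes, 2 in number, while 6 of 9 had an unadjusted p under 0.05 and a higher level, beside 6.29%. The median fitted change over the 9 genes was log2 1.19, and 0 over all genes. With arrays scaled to equal medians 44 genes were called, 27 higher and 17 lower, Stra8 among the higher, in place of 2 higher and 0 lower. Without the deletion line's day 7 array the fitted Sycp3 difference was log2 -0.11, and without its day 4 array that of Hormad1 was -0.21, so that the sign of these 2 genes rests on 1 array each.

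**Figure D3:**
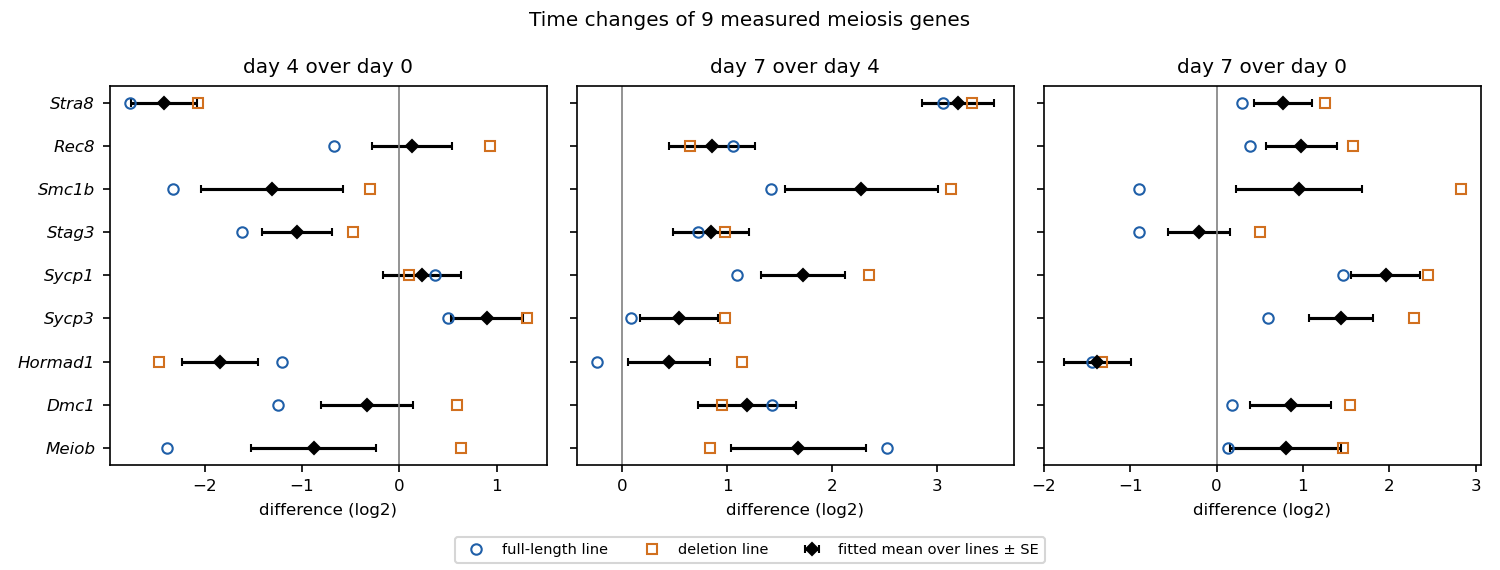
Difference between days (horizontal axes, log2) for 9 measured meiosis genes (rows), with circles for the full-length line, squares for the deletion line, and diamonds with bars for the limma mean over lines ± SE. In the middle panel all 9 diamonds lie above 0, from 0.45 for Hormad1 to 3.20 for Stra8.

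Day 7 set against day 0 gives the net change over both phases. Relative to day 0, 7 of 9 genes were at least 2-fold higher at day 7 in the deletion line, all but Stag3 and Hormad1, beside 6.25% of all genes, and 1 of 9, Sycp1, in the full-length line, beside 9.96%. The count takes in Dmc1, whose dimmer probe set went only from 6.76 to 6.97 in the deletion line. Of the 7 genes, Stra8, Smc1b, Rec8, Meiob and Dmc1 began at least 2-fold below the full-length line at day 0. At day 7 these genes differed from that line by log2 -0.05, 1.59, -0.10, -0.87 and 0.28, so the day 0 arrays enter the contrast between the lines. Hormad1 was at least 2-fold lower in both lines, by log2 -1.44 and -1.33. The medians over the 9 genes were log2 1.54 in the deletion and 0.18 in the full-length line, with 0.03 and 0.06 over all genes. With limma 0 of 9 were called, beside 1.03% of all genes, and 4 of 9 had an unadjusted p under 0.05 (Sycp1, Sycp3 and Rec8 higher and Hormad1 lower), beside 17.3%. Day 4 was the lowest day in both lines for 3 of 9 genes (Stra8, Smc1b and Stag3), beside 11.1% of all genes, and day 7 the highest in both for 6 of 9 (Stra8, Sycp1, Sycp3, Rec8, Meiob and Dmc1), beside 15.6%. Both patterns were chosen after the levels had been seen. At the dimmer Dmc1 probe set day 7 was not the highest day in the deletion line (6.97, against 7.37 at day 4).

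The lines, which differ in the DNMT1 form they carry, were compared on each day. At day 0 the deletion line had 8 of 9 genes below the full-length line and 5 of 9 at least 2-fold below it (Stra8, Smc1b, Rec8, Meiob and Dmc1), beside 2.82% of all genes. The dimmer Dmc1 probe set was less than 2-fold apart there, at 7.20 in the full-length and 6.76 in the deletion line. At day 4 0 of 9 differed by 2-fold, beside 2.43% of all genes higher and 3.54% lower. At day 7 3 of 9 were at least 2-fold higher in the deletion line (Hormad1, Smc1b and Sycp3), beside 3.95%. The median line difference over the 9 genes was log2 -1.02, 0.31 and 0.68 at days 0, 4 and 7, and between -0.05 and -0.02 over all genes. Averaged over days, 0 of 9 genes and 0.0% of all genes were called by limma, and 1 of 9, Hormad1, had an unadjusted p under 0.05, beside 12.2%.

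**Figure D4:**
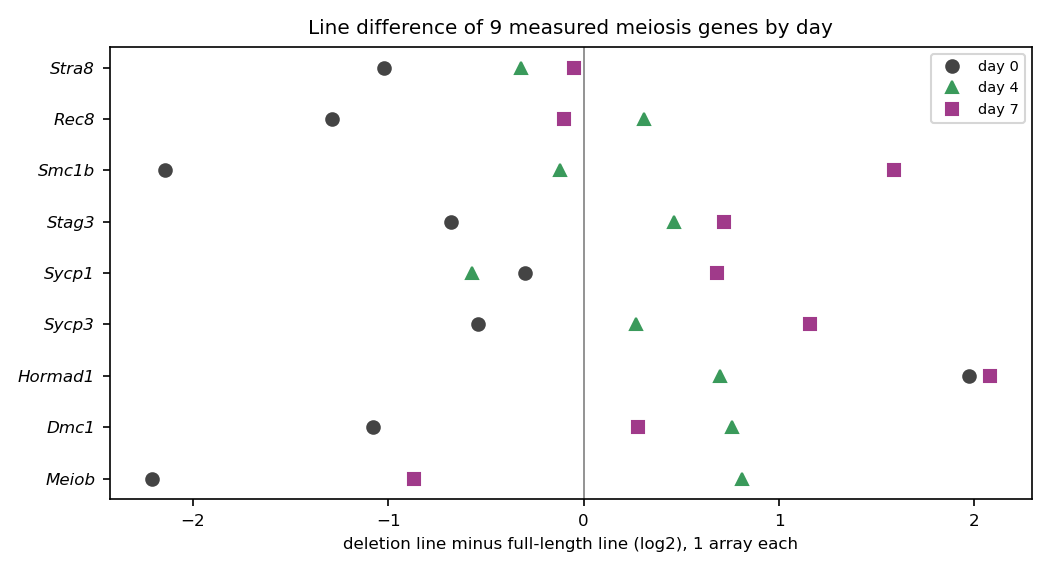
Deletion line minus full-length line (horizontal axis, log2, 1 array each) for 9 measured meiosis genes (rows) at day 0 (circles), day 4 (triangles) and day 7 (squares). The day 0 circles lie below 0 for 8 genes, and Hormad1 lies above 0 on all 3 days.

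Other genes of meiosis had a smaller median change. Of 45 further meiosis genes listed, 33 were analysed here and 28 measured. At day 7, 23 of the 28 had fitted levels above day 4, with a median over the 28 of log2 0.41. In this comparison 0 of them were called, beside 0.0151% of all genes. Tex15, a gene of meiotic DNA repair, rose 2.84-fold from day 0 to day 4 (log2 1.5, SE 0.23, adjusted p = 0.033) and was 2.53-fold higher at day 7 than at day 0 (log2 1.34, SE 0.23, adjusted p = 0.049), the only gene of this list called in either comparison. Its levels were 8.88, 10.13 and 10.22 with full-length DNMT1 and 8.52, 10.28 and 9.86 with the deletion. The remaining 27 measured genes were not called, in comparisons that called 1.58% and 1.03% of all genes.

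The meiosis genes with the widest range in that list were Meioc, Majin, Mei4, Hormad2, Rec114 and Syce3. Meioc, which keeps germ cells in prophase, measured 9.14, 7.26 and 9.12 (full-length line) and 8.33, 8.47 and 10.15 (deletion line), the first of these courses lowest at day 4 and the second highest at day 7. Rec114, a cofactor of SPO11, stood at 10.42, 9.52 and 10.69 with full-length DNMT1 and at 9.69, 9.20 and 11.21 with the deletion, low at day 4 in both. Its day 7 over day 4 difference of log2 1.59 (SE 0.30, adjusted p = 0.13) was not called. Hormad2, the relative of Hormad1, was lowest at day 4 in both lines, with day 4 levels of 5.65 and 5.79 and levels of 6.63 to 7.75 on the other arrays. Mei4, another SPO11 cofactor gene, was higher in the deletion line on each day, with a fitted line difference of log2 1.38 (SE 0.30, adjusted p = 0.29).

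**Figure D5:**
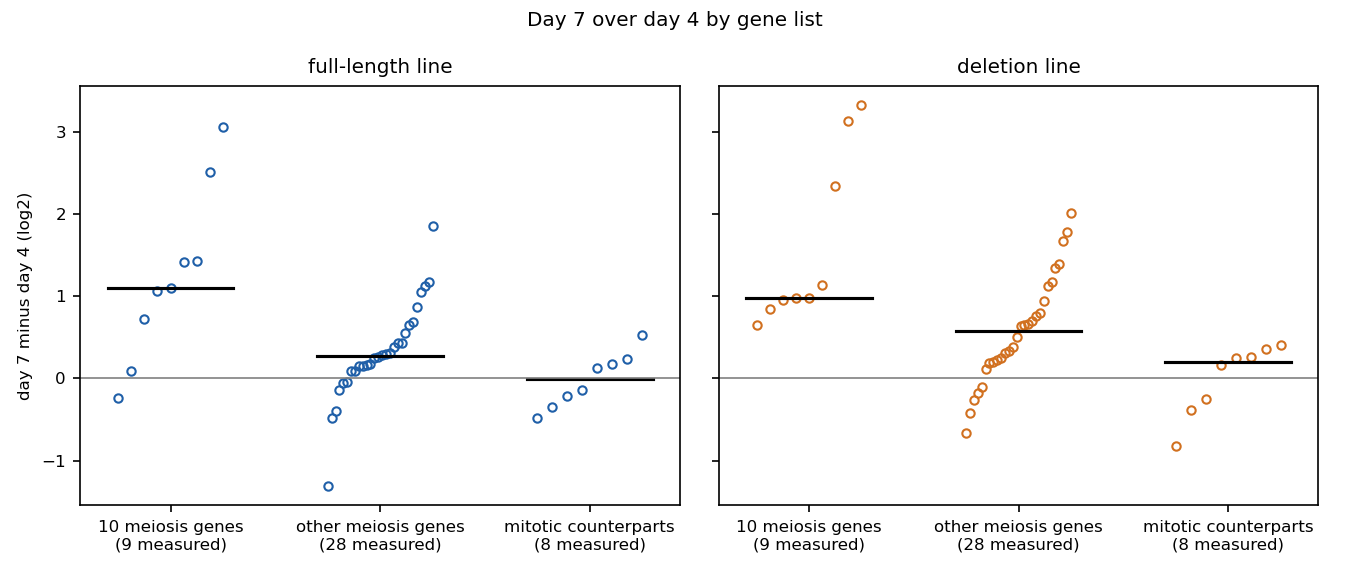
Day 7 minus day 4 (vertical axis, log2) for each measured gene of 3 lists, in the full-length line (left) and the deletion line (right), with black bars at the medians. The medians of the 9 measured meiosis genes are 1.10 and 0.98, those of the 28 other meiosis genes 0.27 and 0.58, and those of the 8 mitotic counterparts 0 and 0.21.

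None of the mitotic counterparts of these genes was called. Of 10 listed genes of mitotic cohesin, replication and repair 8 were measured. The 4 limma comparisons called 0 of them, beside 0.0% to 1.58% of all genes. Of the 9 measured meiosis genes they called 1, in day 4 over day 0 only. The median fitted change of the 8 counterparts was log2 -0.25 from day 0 to day 4 and 0.08 from day 4 to day 7. Smc1a, the mitotic relative of Smc1b, lay between 11.11 and 12.07 over the 6 arrays, and Rad21, that of Rec8, between 12.29 and 13.25. Stag1 and Stag2, the mitotic relatives of Stag3, ranged over log2 0.47 and 1.15, and Stag2 differed by 0.82 from day 0 to day 4 (SE 0.24, adjusted p = 0.16), opposite in sign to Stag3. Rpa1, the general single-strand binding protein related to MEIOB, ranged over 0.31, Hus1 over 0.89, Top2a over 0.64 and Smc3, which all cohesins share, over 0.61.

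Retinoic acid genes were read beside Stra8. Of 20 listed genes 15 were measured. In day 4 over day 0 and in day 7 over day 0, 1 of them was called, beside 1.58% and 1.03% of all genes. It was Cyp26a1, the enzyme gene that clears retinoic acid and is a target of its receptors. Cyp26a1 read 3.68, 7.25 and 7.81 with the whole protein against 4.43, 8.30 and 9.22 in the mutant line, below the floor at day 0 in both. With day 0 set to the floor, it rose by a fitted log2 2.41 to day 4 (SE 0.42, adjusted p = 0.041) and 3.15 to day 7 (SE 0.42, adjusted p = 0.027), values that depend on the floor. Its day 4 levels were above the floor in both lines, where Stra8 was at its lowest. Dhrs3, which lowers retinoic acid, differed from day 0 by a fitted log2 1.38 and 1.80 at days 4 and 7 (adjusted p = 0.22 and 0.13). It measured 5.42, 7.79 and 7.95 (full-length line) and 5.74, 6.14 and 6.81 (deletion line), near the floor at day 0. From day 0 to day 4, 8 of the 15 genes had fitted differences above 0 and 7 below, among them Crabp1 (log2 -1.03, SE 0.28, adjusted p = 0.13). The list's median was 0.08 from day 0 to day 4 and 0.04 from day 4 to day 7.

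Germ cell markers were read on the same arrays. Of 14 listed genes 12 had a probe set of their own name here and 11 were measured, and none was listed at 0, with 1 to 3 below the floor on each array. The log2 of their summed signal was 13.78, 12.64 and 13.89 with full-length DNMT1 and 13.36, 13.14 and 14.89 with the deletion, lowest at day 4 in both. A sum weights the brightest genes, at day 7 of the deletion line Dazl (13.53) and Dppa3 (13.16). The median change of the 11 genes from day 0 to day 4 was log2 -0.84 with full-length DNMT1. With the deletion it was -0.04, with 4 genes above 0 and 6 below. Ddx4, a defining germ cell gene, measured 9.34, 9.31 and 9.06 (full-length line) and 9.28, 9.34 and 10.09 (deletion line). Sohlh1, of early germ cells of the gonad, was below the floor on all 6 arrays. Sohlh2 of the same list was above it on all 6, at 10.04, 9.20 and 11.08 with full-length DNMT1 and 9.10, 8.95 and 10.65 with the deletion. Its highest level was at day 7 in both lines. Dazl, the gene of a germ cell RNA-binding protein, was lowest at day 4 in both lines, at 9.45 and 10.07, and highest at day 7 of the deletion line, at 13.53. The 4 limma comparisons called 0 of these markers, beside 0.0% to 1.58% of all genes. The part of these markers in the levels of the meiosis genes was not tested. Of 10 markers of gonadal support cells 7 were measured and 0 were called, beside 0.0% to 1.58% of all genes. Sox9, which defines Sertoli cells, was below the floor on all 6 arrays. Foxl2, Wt1, Gata4, Inha, Star and Cyp11a1 of this list were above it on all 6. Foxl2 lay between 6.99 and 7.57, Wt1 between 7.04 and 7.94 and Cyp11a1 between 6.60 and 8.54. Fshr was below the floor on 3 arrays, and Amh and Nr5a1 on 5 each.

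The courses of the meiosis genes differed from each other. Over 36 pairs of the 9 measured genes the median Pearson r across the 6 arrays was 0.62, 14 pairs reached 0.7, and the 5 pairs below 0 all held Hormad1. Rec8 and Dmc1 had r = 0.91, Dmc1 and Meiob 0.88, and Smc1b and Dmc1 0.86, while Stra8 and Sycp3 had 0.11. The 6 arrays share lines and days, so these values describe courses and carry no test.

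The genes most like each gene were sought among 1104 measured genes with a range of at least log2 2. For Stra8 they were Defb42 (r = 0.988), Aurkc (0.985), Pgam2 (0.957), Aard (0.952) and Gm21283 (0.951). Aurkc, an Aurora kinase gene of germ cells, read 10.04, 8.51 and 10.16 with the whole protein against 9.09, 8.07 and 10.22 in the mutant line, low at day 4 in both. For Smc1b they were Inpp5d, Scml2, Elobl, Urgcp and 5330411J11Rik, with r from 0.965 to 0.975. For Sycp1 they were Fam3b, Tex19.2, Tmsb15a, Vax2 and Gca, from 0.948 to 0.987, and for Sycp3 Aqp8, Pga5, Pth1r, Gpat3 and Cox7b2, from 0.953 to 0.982. For Hormad1 they were Fbln2, Nfix, Ltbp2, ND5 and Aoah, from 0.942 to 0.958. For Meiob they were Ly6k, Oas1c, Cpn1, Pgam2 and Gm5617, with lower values, from 0.851 to 0.892. Rec8, Stag3 and Dmc1 ranged over less than log2 2 and were not compared.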

How the data were processed

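RNA of 6 samples was hybridised to Affymetrix arrays. The authors made signals by MAS5 (per the submitters' processing notes). The deposited values were taken as log2, since they ran from 0 to 15.68 with 2%-trimmed linear means between 496.7 and 496.9. The sources used here state no MAS5 version, scaling target or log base. Global scaling removes any shift of most genes in 1 direction. Groups came from the sample titles, since the source label of the deletion line at day 0 reads as differentiated cells.

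Values below a floor, a signal of 41.2 (the median over arrays of the 40th percentile), were set to it before differences were taken. Of 45037 probe sets 34945 had 1 gene symbol, 932 several and 9160 none in the platform annotation. limma 3.58.1 in R 4.3.3 fitted line and day as additive factors, with a variance trend, 2 residual and 5.63 prior degrees of freedom, two-sided tests and Benjamini-Hochberg adjustment. Separate cultures are not stated in the labels, so p-values measure the spread between these arrays only. The script was tested on simulated data. The gene lists named were other meiosis genes, mitotic counterparts, retinoic acid genes, repressors of germline genes, methylation-silenced germline genes and markers of germ, gonadal support, fibroblast and pluripotent cells. The rule for named genes took all 10 meiosis genes, up to 6 genes of widest range per list, all counterparts and the 5 closest courses per gene. Tex15, Rhox13, Ddx4, Sohlh1, Sox9, Foxl2, Amh, Nr5a1, Fbln2, Dnmt3a, Dnmt3b, Pou5f1 and Sox2 were named after their values were seen. Members and lists were chosen with earlier results of these data known. Alternatives were other floors, no filter, other scaling, averaged probe sets, other variance models and leaving out each array.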

Additional observations from a re-analysis of the deposited data

Results flagged for a closer look

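Flags mark time changes of at least log2 0.5 that ran in opposite directions in the 2 lines. They concern 5 genes, and with 1 array per line and day the difference between the lines was not tested. From day 0 to day 4, Meiob moved by log2 -2.39 with full-length DNMT1 and 0.63 with the deletion, Dmc1 by -1.25 and 0.59, and Rec8 by -0.67 and 0.93. From day 0 to day 7, Smc1b moved by -0.90 and 2.83, and Stag3 by -0.90 and 0.50, in the same order. In each of these 5 cases the day 0 level of the full-length line was the higher of the 2 day 0 levels, so the day 0 arrays enter all of them. At the dimmer Dmc1 probe set the day 0 and day 4 levels were 7.20 and 7.10 in the full-length line.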

How the results depend on the processing

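The labels carry no replicate numbers, so no pairing of cultures beyond the line could be fitted. The line is a term of the fit, which thus compares days within lines, and the one-factor model leaves it out. Day 4 over day 0 called 210 genes and 1 meiosis gene. The counts were 127 and 0 with a floor at the 60th percentile, 0 and 0 with no filter on dim genes, 319 and 2 with arrays scaled to equal medians, 16 and 0 without a variance trend, 2 and 0 without a variance prior, and 18 and 0 in a one-factor model, and averaging probe sets gave 125 genes. Day 7 over day 4 called 2 genes. It called 44, 1 of them a meiosis gene, at equal medians, 1 with the higher floor, quantile normalization, averaged probe sets or the one-factor model, and 0 without a trend or a prior. Day 7 over day 0 called 137 genes. The counts were 61 with the higher floor, 0 with no filter, 227 at equal medians with 1 meiosis gene, 63 with averaged probe sets, 3 without a trend, 0 without a prior and 12 in the one-factor model. The line difference called 0 genes, with 1624 at an unadjusted p under 0.05, and 3 at equal medians. The cause of these changes was not tested.

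The sign turned for the Sycp1 line difference with the higher floor (0.17), for that of Dmc1 at equal medians (0.02) and with quantile normalization (0.00), and for Dmc1 in day 4 over day 0 at its other probe set (0.25). Leaving out 1 array gave 0 to 129 genes and 0 to 1 meiosis genes in day 4 over day 0, 0 genes in day 7 over day 4, 0 to 10 in day 7 over day 0 and 0 for the lines. Day 4 over day 0 then ran from -2.75 to 0.13 for Smc1b, -0.15 to 0.62 for Sycp1, -0.57 to 0.83 for Rec8, -2.06 to 0.30 for Meiob and -1.13 to 0.47 for Dmc1. Day 7 over day 4 ran from -0.11 to 1.18 for Sycp3 and -0.21 to 1.11 for Hormad1. Day 7 over day 0 ran from -0.47 to 2.40 for Smc1b, -0.84 to 0.44 for Stag3 and -0.29 to 1.89 for Meiob. The line difference ran from -1.13 to 0.74 for Smc1b, -0.44 to 0.19 for Sycp1, -0.14 to 0.72 for Sycp3, -0.70 to 0.10 for Rec8, -0.11 to 0.59 for Stag3 and -0.40 to 0.52 for Dmc1. The fits without 1 array leave days with a lone sample, which is assumed to vary like the others. Dim signal limits Spo11, below the floor on 3 arrays, and Meiob, near it at 5.62 and 5.80. With the floor at the 60th percentile, the fitted Meiob difference was log2 0.70 in place of 1.68 in day 7 over day 4. In day 7 over day 0 it was 0.20 in place of 0.80.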

Other observations

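Germline genes that DNA methylation is known to silence in other cells were listed beside the meiosis genes, and 14 of 15 were measured. From day 4 to day 7 their median difference was log2 0.39 with full-length DNMT1 and 2.03 with the deletion. Day 7 set against day 0 gave medians of 0.14 and 2.28 in the same order. The medians over all genes were 0.02 and -0.01, and 0.06 and 0.03. At day 0 the deletion line was below the full-length line for 13 of the 14 genes, with a median line difference of log2 -0.77. At day 7 it was above that line for 12 of the 14, with a median of 0.88. Over all genes the median line difference was -0.05 on both days. No test was run between the lines. Called over both lines in day 7 over day 0 were 2 of 14 genes, beside 1.03% of all genes. Rhox13, a homeobox gene of germ cells, rose 4.61-fold (log2 2.20, SE 0.24, limma adjusted p = 0.019). Its levels were 8.90, 9.67 and 10.98 (full-length line) and 8.30, 8.65 and 10.63 (deletion line). Tex19.2, a gene of germ cells and placenta, rose 7.73-fold (log2 2.95, SE 0.50, limma adjusted p = 0.048), with arrays at 8.01, 7.61 and 9.79 for full-length DNMT1 and at 7.22, 7.59 and 11.34 with the deletion.

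Of 21 listed repressors of germline genes 20 were measured. Beside 0.0% to 1.58% of all genes, limma called 0 of these repressors in the 4 comparisons. Their median difference was log2 -0.36 between days 7 and 0, with 16 of 20 below 0, and 0.01 between the lines. The medians over all genes were 0.05 and -0.06 in the same order. Mga, whose protein anchors a Polycomb complex at E-boxes, read 10.83, 10.41 and 10.10 with the whole protein against 11.36, 10.82 and 10.98 in the mutant line. E2f6, whose protein brings the same complex to its own motif, measured 9.83, 10.07 and 10.29 (full-length line) and 9.35, 9.56 and 9.48 (deletion line), the latter lower than the full-length line on each day (fitted log2 -0.60, SE 0.17, adjusted p = 0.30).

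Of 8 listed pluripotent cell genes all 8 were measured. From day 0 to day 4, 2 were called higher and 2 lower, where 1.58% of all genes were called. Called or not, 2 of the 8 had fitted differences above 0 and 6 below. Otx2, a gene of the primed state, rose (log2 1.86, SE 0.20, limma adjusted p = 0.01). Fgf5, another, rose too (adjusted p = 0.0018), but its day 0 level in the deletion line, 2.83, lay below the floor of 5.37, so its fitted difference depends on that floor. Klf4 and Esrrb, genes of the naive state, fell (log2 -3.63, SE 0.18, limma adjusted p = 0.00074, and log2 -1.68, SE 0.27, adjusted p = 0.035).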
